A study of Rattus norvegicus with 8 samples.

Results

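Of the 32883 genes in the deposited table, 10 were taken by name because their products modify, chaperone or cleave procollagen: the prolyl 4-hydroxylase alpha subunits P4ha1, P4ha2 and P4ha3, the lysyl hydroxylases Plod1, Plod2 and Plod3, the collagen chaperone Serpinh1 (HSP47), the C-propeptide proteinase Bmp1, its enhancer Pcolce and the N-propeptide proteinase Adamts2. They were measured by sequencing polyadenylated mRNA of the right Achilles tendon of 8 male wild-type Sprague-Dawley rats (8 to 10 weeks old), with 1 library per rat. Of these, 4 rats ran uphill on a treadmill for 1 h and were killed after 12 h of rest (12 h p.r., where p.r. stands for post-running), and 4 were kept in cages without the run and were killed at the same time as the runners (NC). Reads counted on genes totaled between 7350509 and 12951397 per rat. All 10 genes passed the filter on low counts, with 13937 genes tested in all. A single rest time was sequenced here, so the values say nothing of earlier or later times, and whole tendon RNA was used, in which fewer cells of a type and less RNA per cell cannot be told apart.

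Fibrillar collagen is made as procollagen chains in the endoplasmic reticulum. Prolyl 4-hydroxylase, a tetramer of alpha subunits (P4ha) and protein disulfide isomerase (P4hb), hydroxylates prolines, which stabilizes the triple helix. The lysyl hydroxylases (Plod) hydroxylate lysines that later carry sugars and cross-links, and Plod2 acts on the telopeptide lysines from which stable cross-links of tendon and bone form. Serpinh1 binds the folded helix and accompanies it toward the Golgi, after which Adamts2 and Bmp1 remove the N- and C-propeptides, and Pcolce speeds the cleavage by Bmp1. Tenocytes, the fibroblasts of tendon, use this machinery to make type I collagen, the main component of their matrix.

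The labelled tissue was first checked. The 7 tenocyte markers were detected in every rat, with Tnmd (tenomodulin) between 167 and 293 FPKM (read counts per gene length, scaled between rats by the authors) and Scx (scleraxis) between 17.9 and 53.2 FPKM. Between the groups, 3 of the 7 were higher at 12 h p.r. at an unadjusted p under 0.05 by edgeR (Scx 0.62 ± 0.22, Mkx 0.78 ± 0.27 and Thbs4 0.56 ± 0.23 on the log2 scale), 0 were lower and 0 passed the adjusted p. Among all genes tested, 5.44% were higher and 4.08% lower at that p. The median log2 fold change was 0.56 over the 7 markers and 0.02 over all genes tested. One library stood apart. In 12 h p.r. replicate 3, the 9 skeletal muscle markers found summed to 62169 CPM (counts scaled to a common library size) and in the remaining 7 rats to between 1341 and 11060 CPM, and none of these markers was at 0 in any rat. The tenocyte markers summed to 2838 CPM in the same rat and to between 4376 and 8107 CPM in the others. Their sums overlapped between the groups (2838 to 8107 CPM at 12 h p.r., 4376 to 6463 CPM in NC). The 8 cartilage and bone markers summed to 1167 CPM in NC replicate 3 and 392 CPM in 12 h p.r. replicate 1, and to between 4.05 and 17.7 CPM in the other 6 rats. The ranges of the groups overlapped for the summed markers of endothelium (1147 to 1388 CPM at 12 h p.r., 1180 to 1317 CPM in NC), leukocytes (379 to 803 against 459 to 1197 CPM), adipocytes (1098 to 2969 against 1869 to 3359 CPM), Schwann cells (217 to 283 against 188 to 440 CPM) and smooth muscle and pericytes (1530 to 2120 against 1412 to 1842 CPM). Fold changes, shares, ratios to Col1a1 and correlations are therefore also given without 12 h p.r. replicate 3 where this rat moved them.

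The promoters of both enzyme families are shown first, because P4ha2 was the gene whose groups did not overlap and Plod2 the gene with the widest range over the 8 rats, each beside the paralog of its family with the higher level or the steadier level (P4ha1 and Plod1, respectively). All 4 genes are known from other systems as targets of hypoxia-inducible factors, whose binding sites share the core ACGTG or GCGTG. The RefSeq promoter table (GRCr8) held 9 of the 10 genes, all but Bmp1. The sequences are the 250 bases before each gene's start, 5′ to 3′ on the strand of the gene, and capitals mark ACGTG, read on either strand (CACGT on the strand printed where the match is on the other strand).
P4ha1 (chr20:27844796-27845045, + strand): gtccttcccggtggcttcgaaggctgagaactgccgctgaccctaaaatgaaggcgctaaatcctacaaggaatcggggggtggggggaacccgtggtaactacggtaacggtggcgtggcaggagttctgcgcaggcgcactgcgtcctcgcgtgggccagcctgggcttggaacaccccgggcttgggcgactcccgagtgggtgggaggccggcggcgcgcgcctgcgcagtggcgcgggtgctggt
P4ha2 (chr10:38743644-38743893, + strand): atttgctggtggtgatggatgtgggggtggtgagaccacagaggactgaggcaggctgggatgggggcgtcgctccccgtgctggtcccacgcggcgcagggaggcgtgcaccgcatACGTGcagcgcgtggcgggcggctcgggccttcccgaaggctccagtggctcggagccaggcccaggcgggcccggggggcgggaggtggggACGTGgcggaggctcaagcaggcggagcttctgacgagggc
Plod1 (chr5:163650738-163650987, - strand): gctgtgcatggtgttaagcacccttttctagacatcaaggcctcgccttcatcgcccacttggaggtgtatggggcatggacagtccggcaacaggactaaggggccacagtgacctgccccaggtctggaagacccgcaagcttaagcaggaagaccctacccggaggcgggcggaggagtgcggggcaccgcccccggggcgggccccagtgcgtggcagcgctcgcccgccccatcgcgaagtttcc
Plod2 (chr8:101964068-101964317, + strand): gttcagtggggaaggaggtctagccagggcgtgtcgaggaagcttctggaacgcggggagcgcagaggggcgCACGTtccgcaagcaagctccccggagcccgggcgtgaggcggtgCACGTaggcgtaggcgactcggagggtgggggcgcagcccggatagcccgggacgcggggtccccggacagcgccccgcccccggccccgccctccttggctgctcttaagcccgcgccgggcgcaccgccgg

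ACGTG occurred 2 times in the P4ha2 promoter, both on the strand of the gene, with the first base 133 and 41 bases before the start. It occurred 2 times in the Plod2 promoter, both on the opposite strand, with the leftmost base 178 and 133 bases before the start. The other 7 promoters, those of P4ha1 and Plod1 included, did not hold it in this window. Among all 33469 promoters of the table, 16.6% held ACGTG at least once on either strand and 6.53% at least 2 times. The second core, GCGTG, was found in 6 of the 9 promoters (2 times in P4ha1, 3 in P4ha2, 1 in Plod1, 2 in Plod2, 1 in Plod3 and 1 in Pcolce) and in 25.9% of all promoters. The GC content of the 9 windows ran from 56.0% (Pcolce) to 75.6% (Adamts2). That of all promoters was not computed, so the shares are not matched for it. Matches of both cores were counted separately, and an ACGTG on both strands at 1 place (CACGTG) counts 2 times. The letters are a description of the sequence and were not tested against the expression values.

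In resting tendon the 10 genes spanned a wide range of levels. On the FPKM scale, which is per length and so allows genes to be compared, Serpinh1 averaged 420 ± 70.6 and Pcolce 408 ± 77.9 in the NC rats (SD, n = 4), and both stood at percentile 98.5 of the genes tested. P4ha1 followed at 68.2 ± 21.0 FPKM, then Plod1 at 47.5 ± 2.37, Bmp1 at 47.3 ± 2.55, Plod2 at 44.0 ± 11.6, Adamts2 at 29.7 ± 5.62, Plod3 at 20.8 ± 1.70 and P4ha2 at 20.4 ± 2.24 FPKM. P4ha3 was the lowest, at 1.54 ± 0.575 FPKM, percentile 13.1. Ranges over the 4 NC rats overlapped between neighbors in this order for Serpinh1 and Pcolce, for Plod1, Bmp1, Plod2 and Adamts2 in turn, and for Plod3 and P4ha2. The steps from Pcolce to P4ha1, from P4ha1 to Plod1, from Adamts2 to Plod3 and from P4ha2 to P4ha3 had no overlap. At 12 h p.r. the order of the means was the same except that Plod2 came before Bmp1. Within the NC group, the coefficient of variation of FPKM ran from 4.98% for Plod1 and 5.39% for Bmp1 to 30.8% for P4ha1 and 37.4% for P4ha3. Over all 8 rats, the highest value of Plod2 was 6.50 times its lowest, and that of Plod3 was 1.35 times its lowest. The widest range without 12 h p.r. replicate 3 was that of P4ha3 (3.43 times), followed by Plod2 (2.67 times), and the narrowest that of Bmp1 (1.31 times).

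**Figure D1:**
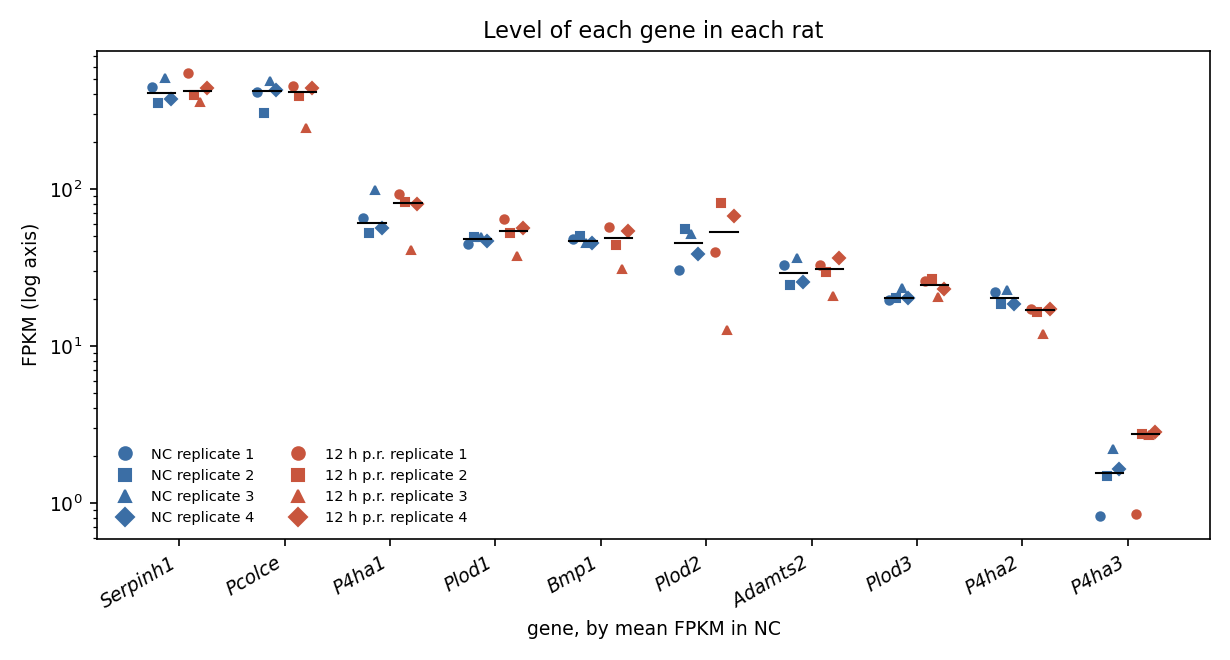
FPKM of the 10 genes in each rat on a log axis, ordered by the NC mean, with color for the group, shape for the replicate number and a line at the median of each group. The P4ha2 values of the 4 running rats all lie below those of the NC rats, while the groups overlap for the other 9 genes.

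None of the 10 genes was called. At an adjusted p under 0.05 (quasi-likelihood test of edgeR, Benjamini-Hochberg over every gene tested) and a change of 2-fold or more, 0 of the 10 were higher and 0 were lower at 12 h p.r. than in NC, as among all genes tested (0% in each direction), and the Wald test of DESeq2 gave 0 and 0 for the 10 genes, where it called 13 genes higher (0.094%) and 16 lower (0.116%) of the 13825 genes with an adjusted p. Without the condition on fold change, 0 of the 10 and 0.00718% of all genes passed the adjusted p of edgeR. At an unadjusted p under 0.05, P4ha2 was lower and 0 of the 10 genes were higher, against 4.08% lower and 5.44% higher (9.51% in all) among the genes tested. The log2 fold change was above 0 for 7 of the 10 genes, against 54.2% of all genes tested, and below 0 for P4ha2, Bmp1 and Pcolce. The median log2 fold change was 0.10 for the 10 genes and 0.02 for all genes tested.

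P4ha2, which encodes a minor alpha subunit in many fibroblasts, had the smallest p. Its level was 17.2, 16.5, 11.9 and 17.3 FPKM in 12 h p.r. replicates 1 to 4 and 21.9, 18.4, 22.7 and 18.5 FPKM in NC replicates 1 to 4. All 4 running rats lay below all 4 NC rats, a pattern seen in 2.55% of all genes tested. None of the 10 genes had all running rats above all NC rats, as 3.52% of all genes tested did. The log2 fold change was -0.37 ± 0.14 (SE, n = 4 per group; 95% interval from -0.68 to -0.06), with an unadjusted p of 0.0252 and an adjusted p of 0.477 by edgeR. The 2-sided exact permutation test on log2 CPM gave p = 0.0286, the smallest that 4 against 4 rats allow. Complete separation of the groups fixes the permutation p at this value, so it adds nothing to the separation itself. By edgeR, the difference failed the adjustment over all genes. When the skeletal muscle marker score was added to the edgeR fit, the log2 fold change was -0.36 (unadjusted p = 0.0254), and without 12 h p.r. replicate 3 it was -0.25 (unadjusted p = 0.0389). Without NC replicate 1 or NC replicate 3, the unadjusted edgeR p was 0.0636 or 0.0677.

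P4ha1 encodes the main alpha subunit of most cells. It was at 93.5, 82.7, 41.0 and 79.8 FPKM in the 12 h p.r. rats and 65.3, 52.8, 98.7 and 56.0 FPKM in the NC rats, in the order of the replicate numbers. The running rats other than replicate 3 lay above 3 of the 4 NC rats, and NC replicate 3 was the highest of all. Its log2 fold change was 0.13 ± 0.28 (95% interval from -0.50 to 0.76; adjusted p = 0.913 by edgeR).

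P4ha3, a rarely expressed alpha subunit, rested on 11, 35, 38 and 50 reads in the 12 h p.r. rats and 17, 20, 49 and 32 reads in the NC rats. On the FPKM scale this was 0.847, 2.76, 2.71 and 2.81 against 0.820, 1.47, 2.22 and 1.63. Running rats 2, 3 and 4 were above all NC rats, while 12 h p.r. replicate 1 was close to the lowest NC rat. This gave a log2 fold change of 0.58 ± 0.41 (adjusted p = 0.694 by edgeR). Without 12 h p.r. replicate 1 it was 0.84, with an unadjusted p of 0.0321 and an adjusted p of 0.578 by edgeR.

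The composition of the P4ha family within a rat does not depend on the scaling of its library. P4ha1 made up 79.6 ± 4.26% of the summed P4ha FPKM at 12 h p.r. and 75.1 ± 3.25% in NC (SD, n = 4; difference 4.58 percentage points; exact permutation p = 0.114). P4ha2 made up 15.4, 16.2, 21.4 and 17.3% in the running rats and 24.9, 25.3, 18.4 and 24.3% in the NC rats. The lowest NC share, that of replicate 3, lay within the range of the running rats, and the mean difference of -5.64 percentage points gave an exact permutation p of 0.0571 (0.836 after Benjamini-Hochberg adjustment over the 18 shares and ratios computed). The P4ha3 share was 2.79 ± 1.68% against 1.73 ± 0.549% (exact permutation p = 0.314). Without 12 h p.r. replicate 3 the differences were 6.55 (P4ha1), -6.91 (P4ha2) and 0.368 (P4ha3) percentage points, with exact permutation p of 0.0571, 0.0571 and 0.6.

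**Figure D2:**
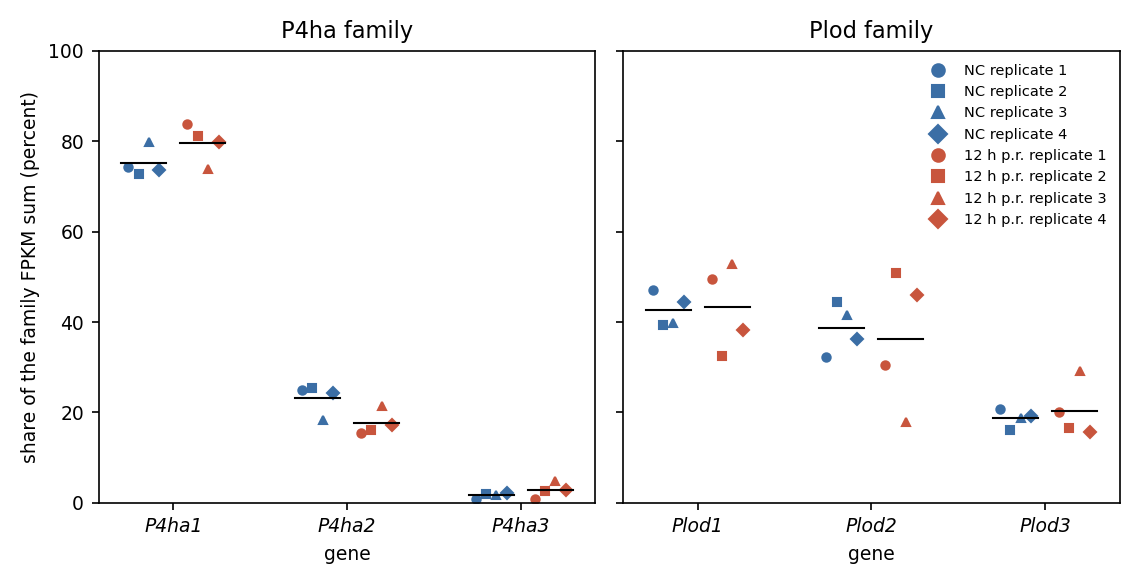
Share of each gene in the summed FPKM of its family in each rat, in percent, with a line at the mean of the group. In the P4ha family the P4ha2 share of NC replicate 3 (18.4%) lies among those of the running rats, and in the Plod family the running rats are spread more widely than the NC rats, from 17.9 to 50.9% for Plod2.

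By edgeR, the lysyl hydroxylases all had log2 fold changes above 0, and none of the 3 passed the test. The sign for Plod2 changed with the method, so the 3 genes share no firm direction. Plod3, which also transfers sugars to hydroxylysine, had the narrowest range over the 8 rats, with 26.0, 26.5, 20.5 and 23.2 FPKM at 12 h p.r. and 19.6, 20.1, 23.3 and 20.3 FPKM in NC. Running rats 1 and 2 were above every NC rat, and rats 3 and 4 were within the NC range. Its log2 fold change was 0.21 ± 0.11 (95% interval from -0.03 to 0.45; unadjusted p = 0.0783 and adjusted p = 0.569 by edgeR; exact permutation p = 0.0857). Plod1, which hydroxylates lysines of the helix, was at 64.3, 52.1, 37.1 and 56.4 FPKM against 44.5, 49.1, 49.7 and 46.8 FPKM. All running rats but replicate 3 were above the NC range, replicate 3 was below it, and the log2 fold change was 0.15 ± 0.16 (adjusted p = 0.791 by edgeR).

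Plod2, the telopeptide lysyl hydroxylase, had the widest range of the 10 genes over the 8 rats, through 12 h p.r. replicate 3. Its level was 39.5, 81.6, 12.6 and 67.6 FPKM in the running rats and 30.6, 55.4, 51.8 and 38.3 FPKM in the NC rats, so that the running group held both the highest and the lowest value. The log2 fold change fitted to the counts was 0.20 ± 0.48 (95% interval from -0.88 to 1.28; adjusted p = 0.921 by edgeR), while the difference of the mean log2 CPM was -0.07, so no direction can be given. Plod2 made up 30.4, 50.9, 17.9 and 45.9% of the summed Plod FPKM in the running rats and 32.3, 44.4, 41.5 and 36.3% in the NC rats. The mean shares of the 3 Plod genes differed by 0.677 (Plod1), -2.35 (Plod2) and 1.67 (Plod3) percentage points between the groups, with exact permutation p of 0.771 or more for each. All 3 changed sign without 12 h p.r. replicate 3, to -2.52, 3.78 and -1.26 percentage points (exact permutation p of 0.429 or more).

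Serpinh1 was at 549, 398, 359 and 441 FPKM in the running rats and 444, 354, 508 and 374 FPKM in the NC rats, with the groups interleaved. Its log2 fold change was 0.06 ± 0.18 (95% interval from -0.35 to 0.47; adjusted p = 0.934 by edgeR), an interval that leaves out a log2 change of 1 in either direction.

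The log2 fold changes of the propeptide-processing genes lay between -0.09 and 0.01. Bmp1 was at 57.6, 43.8, 30.8 and 53.6 FPKM in the running rats and 48.1, 50.5, 45.5 and 45.0 FPKM in the NC rats, and its log2 fold change was -0.02 ± 0.18 (95% interval from -0.43 to 0.39). Pcolce was at 454, 389, 243 and 442 FPKM against 412, 303, 490 and 428 FPKM, with a log2 fold change of -0.09 ± 0.22 (95% interval from -0.60 to 0.42). Adamts2 was at 32.7, 29.4, 20.7 and 36.4 FPKM against 32.6, 24.5, 36.2 and 25.5 FPKM, with a log2 fold change of 0.01 ± 0.20 (95% interval from -0.43 to 0.45). The adjusted p of these 3 genes lay between 0.924 and 0.993 by edgeR. The enhancer was far more abundant than the proteinase: the log2 ratio of Pcolce to Bmp1 was 3.04 at 12 h p.r. and 3.09 in NC (exact permutation p = 0.83), and that of Adamts2 to Bmp1 was -0.63 and -0.69 (exact permutation p = 0.857).

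Single rats were low or high for many of the 10 genes together. The running rat with the high muscle markers, replicate 3, had the lowest value of all 8 rats for 7 of the 10 genes (P4ha1, P4ha2, Plod1, Plod2, Bmp1, Pcolce and Adamts2) and the lowest of its group for 9 of the 10, all but P4ha3. Among all genes tested, 19.0% had their lowest value in this rat, and 30.7% had it when the running group was taken alone. NC replicate 3 held the highest NC value for 8 of the 10 genes, against 23.4% of all genes tested. Among the runners, replicate 1 was the highest for 5 of the 10 genes, against 22.3% of all genes tested. These were the rats with the raised cartilage and bone markers (1167 and 392 CPM). P4ha1, Serpinh1 and Pcolce were higher in both than in any other rat, which did not hold for the remaining genes. The parts of skeletal muscle RNA, of tenocyte content and of cartilage or bone RNA in these values were not tested beyond the fit with the muscle score, in which the 10 log2 fold changes kept their signs, with 0 of them past the adjusted p, and Plod2 moved from 0.20 to 0.01.

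Without 12 h p.r. replicate 3, the log2 fold change was above 0 for 9 of the 10 genes, against 50.7% of 14236 genes tested, and the median of the 10 genes was 0.22, against 0.0043 for all genes tested. This rat was the lowest of its group for 9 of the 10 genes, so leaving it out was bound to raise most of their fold changes. With 12 h p.r. replicate 1 left out instead, the median of the 10 genes was -0.022, against 0.018 for all genes tested. The values that follow are again from the fit without 12 h p.r. replicate 3. Plod3 (0.28 ± 0.10, unadjusted p = 0.0185 by edgeR) and Plod1 (0.29 ± 0.11, unadjusted p = 0.0248 by edgeR) were higher at an unadjusted p under 0.05. The same held for 5.78% of all genes tested. P4ha2 was again lower, as were 5.32%. The lowest adjusted p of the 10 genes was 0.404 by edgeR, so 0 genes passed the adjustment in this fit as well. Plod2 was at 0.52 ± 0.27 and P4ha1 at 0.33 ± 0.21 on the log2 scale. In the same fit all 7 tenocyte markers had log2 fold changes above 0, with a median of 0.69 and 4 of them (Scx, Mkx, Thbs4 and Comp) higher at an unadjusted p under 0.05 by edgeR, and the part of tenocyte content in the values of the 10 genes was not tested.

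**Figure D3:**
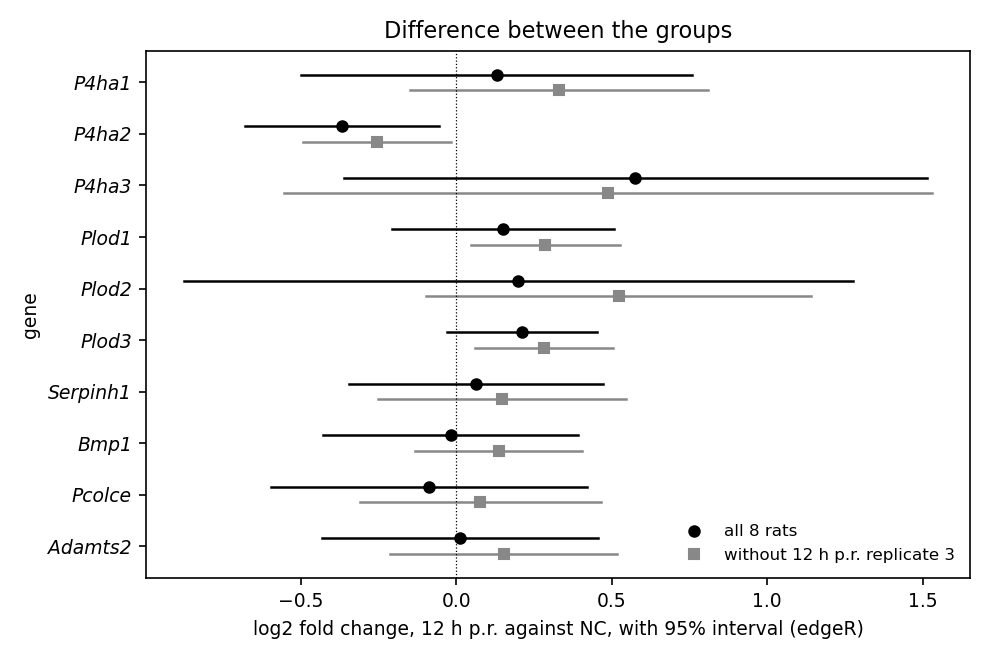
Log2 fold change of each gene at 12 h p.r. against NC with its 95% interval from edgeR, with all 8 rats (black circles) and without 12 h p.r. replicate 3 (gray squares). The interval of P4ha2 lies below 0 in both fits, those of Plod1 and Plod3 lie above 0 only in the fit without that rat, and the intervals of the other 7 genes include 0 in both.

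**Figure D4:**
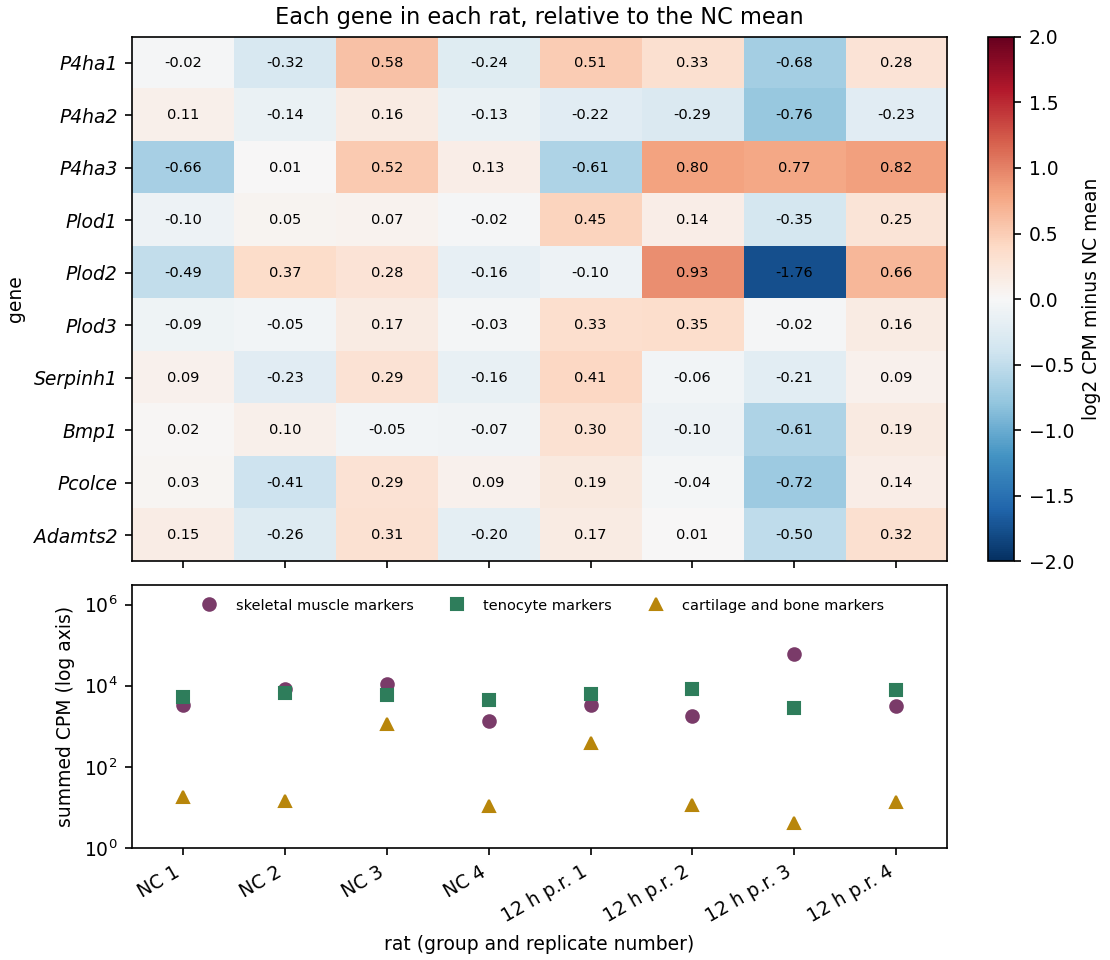
Top, log2 CPM of each gene in each rat minus the NC mean of that gene; bottom, summed CPM of the skeletal muscle, tenocyte and cartilage and bone markers in the same rats on a log axis. In 12 h p.r. replicate 3 the muscle markers reach 62169 CPM, the tenocyte markers are at their lowest (2838 CPM) and most of the 10 genes are low.

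The other genes of the pathway were taken from a fixed list of 39, of which 36 were found in the table and 33 were tested; Crtap, Mia3 and Pcolce2 were not analysed here. Of the 33, 0 passed the test of edgeR with the adjusted p and fold change of at least 2, and at an unadjusted p under 0.05, 1 was higher (Col5a3, a chain of type V collagen) and 0 were lower, against 5.44% higher and 4.08% lower among all genes tested. The log2 fold change was above 0 for 16 (all genes: 54.2%) and below 0 for 17, with a median of -0.01 (all genes: 0.02). Col5a3 was at 44.5, 24.5, 40.5 and 33.3 FPKM in the running rats and 27.7, 29.8, 22.3 and 19.4 FPKM in the NC rats, which overlapped through 12 h p.r. replicate 2, and its log2 fold change was 0.53 ± 0.21 (unadjusted p = 0.0293 and adjusted p = 0.480 by edgeR).

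Among the partners of the hydroxylases, P4hb, the beta subunit of prolyl 4-hydroxylase and a disulfide isomerase in its own right, was at 285 ± 36.0 FPKM at 12 h p.r. and 285 ± 17.9 FPKM in NC (SD, n = 4; log2 fold change 0.01 ± 0.13), a level above that of P4ha1 in every rat. Ppib, a prolyl isomerase that works on procollagen, was at 345 ± 47.1 against 382 ± 37.3 FPKM (-0.14 ± 0.14). Among the genes of folding and export, Sparc, a secreted collagen-binding protein, was at 11477 ± 2985 against 11969 ± 1143 FPKM, and Hspa5, the main chaperone of the endoplasmic reticulum, at 235 ± 75.9 against 210 ± 23.2 FPKM. Furin, a proprotein convertase that activates Bmp1, was at 20.8 ± 2.72 against 22.1 ± 4.17 FPKM. Tll1, a relative of Bmp1 that also cuts C-propeptides, was at 8.79 ± 1.42 against 10.5 ± 0.869 FPKM, and the relatives Tll2, Mep1a and Mep1b did not pass the filter on low counts. The unadjusted edgeR p was 0.0870 for Tll1 and higher for the other 5 genes.

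Without 12 h p.r. replicate 3, 5 of the 33 genes were higher and 1 was lower at an unadjusted p under 0.05, against 5.78% higher and 5.32% lower among all genes tested in that fit, and the median of the 33 was 0.11; the 6 genes are named after their values were seen. P3h2, a prolyl 3-hydroxylase, was higher by 0.41 ± 0.11 on the log2 scale, Hsp90b1, an endoplasmic reticulum chaperone, by 0.47 ± 0.14, P3h4, a partner of Plod1, by 0.33 ± 0.10, Col1a2 by 0.61 ± 0.22 and Hspa5 by 0.36 ± 0.15, while Tll1 was at -0.31 ± 0.13. The lowest adjusted p among the 33 was 0.349 by edgeR.

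The 3 main procollagen substrates had log2 fold changes of both signs, and none passed the test. Col1a1, the alpha1 chain of type I collagen, was at 6372, 4117, 1897 and 4502 FPKM in the running rats and 4815, 4860, 5230 and 3365 FPKM in the NC rats (log2 fold change -0.11 ± 0.36, adjusted p = 0.945 by edgeR). Col1a2, its partner chain, was at 1142, 1438, 617 and 1761 FPKM against 1149, 734, 1081 and 844 FPKM (0.39 ± 0.31, adjusted p = 0.724). Col3a1, the type III chain, was at 1708, 1227, 1186 and 1790 FPKM against 2757, 1319, 2342 and 2245 FPKM, with a log2 fold change of -0.54 ± 0.27 (unadjusted p = 0.0723, adjusted p = 0.561 by edgeR).

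Set against Col1a1 within the same rat, no difference between the groups passed the test. The mean log2 ratio to Col1a1 was higher at 12 h p.r. for 9 of the 10 genes, by between 0.10 (Pcolce) and 0.73 (P4ha3), and was -0.16 for P4ha2, with exact permutation p from 0.171 to 0.771 and adjusted p of 0.836 or more over the 18 shares and ratios. Much of this rested on 12 h p.r. replicate 3: without it 7 of the 10 differences were above 0, with P4ha1 at 0.24, P4ha3 at 0.25, Plod1 and Plod3 at 0.15, Plod2 at 0.37, Adamts2 at 0.035 and Serpinh1 at 0.018, while Bmp1 was at -0.0030, Pcolce at -0.036 and P4ha2 at -0.38, and the exact permutation p was 0.114 or more. The sign also turned with the reference. With Col1a2 in place of Col1a1 the difference was below 0 for 9 of the 10 genes, all but P4ha3. With Col3a1 it was above 0 for all 10. A ratio also carries the change of its reference, and these had log2 fold changes of -0.11 (Col1a1), 0.39 (Col1a2) and -0.54 (Col3a1). The same ratios were not computed for all genes, so these counts have no background here. For Serpinh1 the log2 ratio to Col1a1 in 12 h p.r. replicate 3 was -2.40, against -3.54 to -3.35 in the other running rats.

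Over the 8 rats, log2 CPM of 9 of the 10 genes correlated positively with Col1a1, with Pearson's r of 0.92 for Bmp1 (exact permutation p = 0.00489), 0.82 for Plod1 (p = 0.0162), 0.79 for P4ha1 (p = 0.0130) and 0.77 for Adamts2 (p = 0.0177), each with an adjusted p of 0.0443 over the 10 genes. The r of P4ha2 was 0.75, of Pcolce 0.74, of Serpinh1 0.70, of Plod2 0.68 and of Plod3 0.43, with adjusted exact permutation p from 0.0695 to 0.315, and P4ha3 had r = -0.52. The adjustment covers the 10 genes only, and the same correlation was not computed for all genes. Whether it is particular to the 10 genes therefore cannot be told. The part of skeletal muscle RNA in the values of 12 h p.r. replicate 3 was not tested here. Col1a1 was highest in 12 h p.r. replicate 1 and NC replicate 3, the rats with raised cartilage and bone markers. The part of cartilage or bone RNA in the correlations was not tested either. Spearman's rho was 0.76 for Bmp1, 0.64 for P4ha1 and Serpinh1, 0.57 for Plod1 and 0.55 for Adamts2, and the adjusted exact permutation p of rho was 0.270 or more for all 10. Without the 2 rats farthest from the median of Col1a1 (12 h p.r. replicate 3 and NC replicate 4), r was 0.66 for Bmp1, 0.53 for Plod1, 0.35 for P4ha1, 0.19 for Adamts2 and -0.60 for Plod2, and Serpinh1 kept 0.73 (exact permutation p = 0.0917). None of the 4 correlations that had passed the adjustment did so without those rats. With only 12 h p.r. replicate 3 left out, r was 0.69 for Bmp1, 0.59 for Plod1, 0.56 for P4ha1, 0.49 for Adamts2, 0.76 for Serpinh1 and -0.15 for Plod2, with adjusted exact permutation p of 0.421 or more. Within the NC group alone r was between -0.07 (Pcolce) and 0.63 (P4ha2), and within the running group it was 0.73 or more for the 9 genes and -0.63 for P4ha3, over 4 rats each and with no test.

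**Figure D5:**
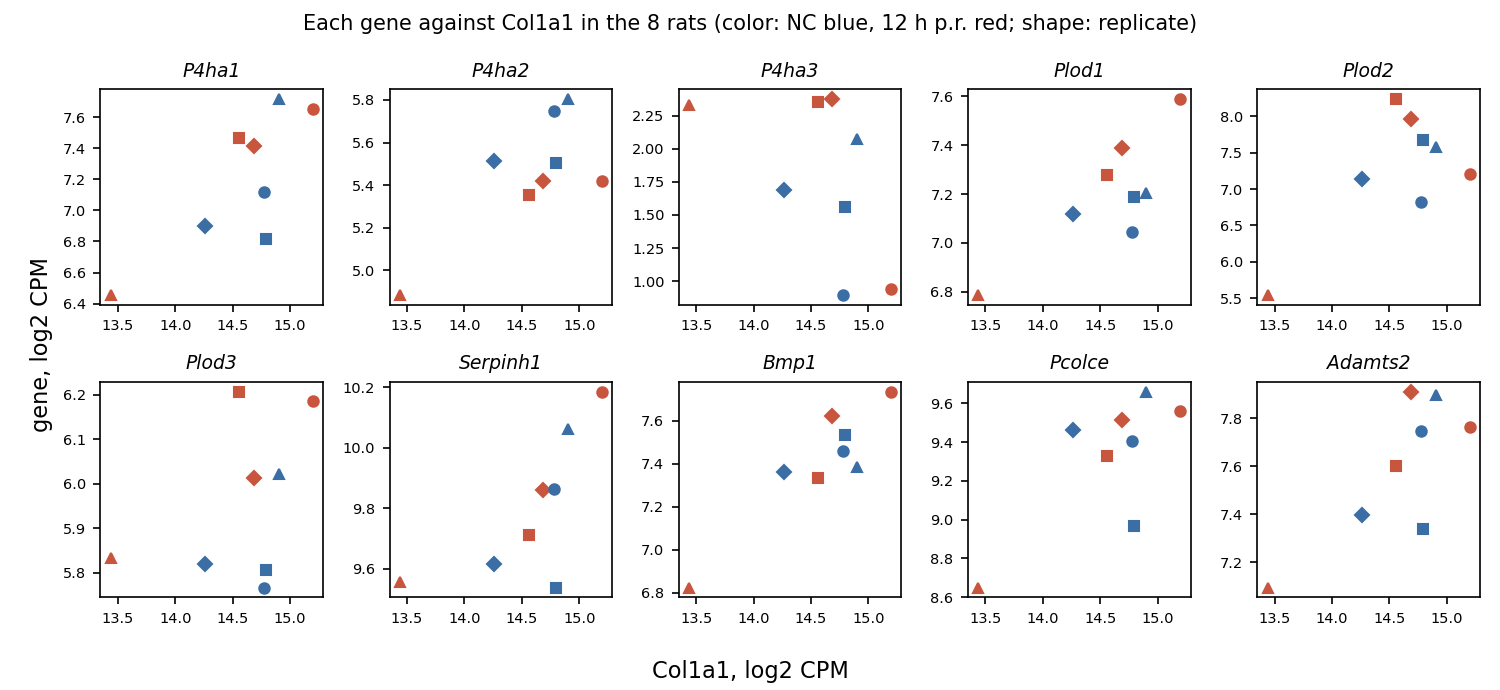
Log2 CPM of each gene against log2 CPM of Col1a1 in the 8 rats, with blue for NC, red for 12 h p.r. and the shape for the replicate number. The red triangle at the lower Col1a1 end is 12 h p.r. replicate 3, which is also the lowest point in the panels of P4ha1, P4ha2, Plod1, Plod2, Bmp1, Pcolce and Adamts2.

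For each of the 10 genes, the genes most like it across the 8 rats were taken by Pearson's r of log2 CPM among 9532 other genes tested with a mean of at least 10 CPM, as a description. The closest gene was Maged1 for P4ha1 (r = 0.99), Cpa3 for P4ha2 (0.97), RGD1309104 for P4ha3 (0.94), Thy1 for Plod1 (0.97), Thbs2 for Plod2 (0.98) and Col6a1 for Plod3 (0.97). It was Rac2 for Serpinh1 (0.96), Slc39a7 for Bmp1 (0.98), Il17ra for Pcolce (0.99) and Maged2 for Adamts2 (0.99). Next came Arse, Poglut1, Ifngr2, Gpsm1, Itga10, Tnks1bp1, Aldh1l2, Qsox1, Txndc5 and Cant1 in the same order, with r from 0.93 to 0.98. Of the 20 genes, Thbs2 (thrombospondin 2), Col6a1 (a type VI collagen chain) and Itga10 (a collagen-binding integrin) belong to the matrix or bind it, and Cpa3 is a mast cell protease. Each is the top of 9532 values over 8 rats. Without 12 h p.r. replicate 3, r was between 0.90 and 0.99 for these 20.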

How the data were processed

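RNA of the right Achilles tendon was kept in RNALater, extracted with TRIzol, selected by polyadenylation and made into stranded libraries. Per the labels and methods, the authors used HISAT2 2.1.0 (genome Rnor_6.0) for alignment and featureCounts 1.6.3 for counts on Ensembl genes. Whether the counting used strand, and how reads of several genes were treated, are not given in the sources used here. Counts were deposited unscaled, as whole reads. The FPKM values deposited by the authors equal counts divided by gene length and by a DESeq2 size factor per rat, which was checked on 11482 genes. The table of the authors' own comparison (DESeq2 1.30.1; fold changes and p-values) was not used, nor were its 8 columns of values per rat.

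The 8 rats were grouped by their labels, 4 per group. Counts were filtered with filterByExpr, scaled by TMM and tested with the quasi-likelihood test of edgeR 4.0.16 (R 4.3.3), with Benjamini-Hochberg adjustment over 13937 genes; a call needed an adjusted p under 0.05 and a change of 2-fold or more. Standard errors come from the quasi-likelihood F statistic. Single shares, ratios and correlations were tested with 2-sided exact permutation tests on log2(CPM + 0.5) or FPKM (NumPy 2.4.6). In comparisons of 4 against 4 rats the p cannot go below 0.0286. The p of the correlations was taken over all pairings of the 8 rats and is not bound by this limit. The scripts were tested on simulated data. Alternatives used DESeq2 1.42.0, limma 3.58.1 on log2(FPKM + 1) and log2(FPKM + 0.1), other factors and filters, a replicate block, a muscle marker covariate and each rat left out.

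The 10 genes, the pathway and marker lists and the tests were chosen with earlier results of these data known. Named were all 10 genes, Col1a1, Col1a2 and Col3a1, pathway genes at an unadjusted p under 0.05, the 2 pathway genes of each sub-list with the highest mean FPKM, and the 2 genes most like each of the 10. Of the markers, Pecam1, Myh4 and Atp2a1 were not analysed here. Replicates are different rats; same-numbered rats of both groups did not deviate together. No 2 libraries of a group agreed within sampling noise. Promoter sequences are from RefSeq (GRCr8), another build than that of the counts, and were used only for sequence. At the depth of 7350509 to 12951397 reads per rat, P4ha3 rested on few reads, and its counts limit its precision.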

Additional observations from a re-analysis of the deposited data

Results flagged for a closer look

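In 56 groups of 4 values (levels, shares and ratios), 5 values lay apart from the other 3 of their group by a test for single outliers, where 2.8 are expected by chance at 1 in 20. The log2 CPM of P4ha2 in 12 h p.r. replicate 3 was 4.88, against 5.36 to 5.42 in the other running rats. The log2 CPM of P4ha3 in 12 h p.r. replicate 1 was 0.94, against 2.33 to 2.38, on 11 reads. The P4ha2 share of the summed P4ha FPKM in NC replicate 3 was 18.4%, below the 24.3 to 25.3% of NC replicates 1, 2 and 4. The log2 ratio of Adamts2 to Bmp1 in 12 h p.r. replicate 1 was -0.82, against -0.58 to -0.56. The log2 ratio of Serpinh1 to Col1a1 in 12 h p.r. replicate 3 was -2.40, against -3.54 to -3.35.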

How the results depend on the processing

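Each log2 fold change of the 10 genes was refitted under 17 settings (9 alternatives to the test, scaling, filter or design, and each rat left out). Of these 170 values, 152 kept their direction and their side of the adjusted threshold, 18 changed sign and 0 became calls. The median log2 fold change of all genes stayed between -0.0016 and 0.03 under all of them, and no other scaling changed the direction of any of the 10 genes. Depth limits P4ha3 most, which rested on 11 to 50 reads per rat.

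Limma on log2(FPKM + 1) put Plod2 at -0.062 and Adamts2 at -0.0069, and limma on log2(FPKM + 0.1) at -0.073 and -0.0076; the cause was not tested. The Wald test of DESeq2 called 13 genes higher and 16 lower in all, and without the fold change condition (an alternative chosen after seeing the data) 54 and 42, none of them among the 10 genes. The edgeR test without that condition called 1 gene lower in all. At an unadjusted p under 0.05, the pathway genes that were lower numbered 1, not 0, with DESeq2 and with the muscle score as a covariate.

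The replicate numbers name different rats, and the deviations of same-numbered rats correlated by 0.07, -0.20, 0.13 and 0.09, so the numbers do not pair the samples. With the replicate number as a block, 974 genes had an unadjusted p under 0.05, against 1326 without it, and 0 of the 10 genes was lower (P4ha2 at -0.38, unadjusted p = 0.0525 by edgeR). In the same block fit Plod2 was at -0.0017.

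With P4ha1 and P4ha2 alone in the family sum, an alternative chosen after seeing the data, the P4ha2 share differed by -5.51 percentage points (exact permutation p = 0.0571). With Col1a2 in place of Col1a1 as the reference, the difference in log2 ratio turned to -0.20 for P4ha1, -0.19 for Plod1, -0.38 for Plod2, -0.10 for Plod3, -0.25 for Serpinh1, -0.37 for Bmp1, -0.42 for Pcolce and -0.31 for Adamts2, and with Col3a1 it turned to 0.14 for P4ha2; none passed the exact permutation test. Without the 2 rats farthest from the median of Col1a1, the correlation with Col1a1 was 0.35 for P4ha1, 0.53 for Plod1, 0.66 for Bmp1 and 0.19 for Adamts2, none past the threshold, and -0.60 for Plod2.

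When 1 rat at a time was left out, the log2 fold change ran from -0.0045 to 0.36 for P4ha1, from -0.42 to -0.25 for P4ha2, from 0.36 to 0.84 for P4ha3, from 0.034 to 0.29 for Plod1, from -0.14 to 0.52 for Plod2, from 0.16 to 0.28 for Plod3, from -0.070 to 0.17 for Serpinh1, from -0.14 to 0.14 for Bmp1, from -0.21 to 0.077 for Pcolce and from -0.10 to 0.15 for Adamts2, and the median of the 10 genes from -0.022 to 0.22. The lowest values of P4ha1, Bmp1 and Serpinh1 came without 12 h p.r. replicate 1, that of Plod2 without replicate 2 and that of Adamts2 without replicate 4, while the highest values of Plod1, Plod2, Plod3, Bmp1, Pcolce and Adamts2 came without replicate 3. At an unadjusted p under 0.05, from 0 to 2 of the 10 genes were higher and from 0 to 1 lower, and from 0 to 5 pathway genes were higher and from 0 to 1 lower; without 12 h p.r. replicate 1, P4ha3 was the gene that was higher, and without NC replicate 3 it was Plod3 (0.27, unadjusted p = 0.0418 by edgeR). The difference in share, in percentage points, ran from 3.18 to 6.55 for P4ha1, from -7.26 to -4.92 for P4ha2, from 0.368 to 1.74 for P4ha3, from -2.52 to 4.28 for Plod1, from -7.23 to 3.78 for Plod2 and from -1.26 to 3.21 for Plod3. The difference in log2 ratio to Col1a1 ran from 0.18 to 0.44 for P4ha1, from -0.38 to 0.027 for P4ha2, from 0.25 to 1.39 for P4ha3, from 0.15 to 0.47 for Plod1, from -0.16 to 0.40 for Plod2, from 0.15 to 0.62 for Plod3, from 0.018 to 0.40 for Serpinh1, from -0.0030 to 0.28 for Bmp1, from -0.069 to 0.27 for Pcolce and from 0.035 to 0.40 for Adamts2, that of Pcolce to Bmp1 from -0.22 to 0.060 and that of Adamts2 to Bmp1 from -0.063 to 0.17. The correlation with Col1a1 ran from 0.56 to 0.91 for P4ha1, from 0.16 to 0.88 for P4ha2, from -0.61 to -0.36 for P4ha3, from 0.59 to 0.90 for Plod1, from -0.15 to 0.79 for Plod2, from 0.24 to 0.55 for Plod3, from 0.59 to 0.88 for Serpinh1, from 0.69 to 0.96 for Bmp1, from 0.18 to 0.90 for Pcolce and from 0.49 to 0.90 for Adamts2; the lowest values of P4ha1, P4ha2, Plod1, Plod2, Bmp1, Pcolce and Adamts2 came without 12 h p.r. replicate 3.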
